A study of Mus musculus with 8 samples.

Results

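The comparison described here is between CD4+ T cell tumours of mice that carry a Miz1 without its POZ domain (deltaPOZ) and CD4+ T cell tumours of mice with intact Miz1 (wt). It covers 12173 of the 41214 genes in the count tables, namely the autosomal genes that reached 1 CPM (counts scaled to library size) in at least 2 of the 4 T tumour libraries. Of these genes 11017 code for proteins. All 4 tumours were taken from the spleen of C57Bl6 mice, and each library came from a mouse with its own number, which gave n = 2 tumours per genotype (T wt 1 and 2, T deltaPOZ 1 and 2). The series holds 8 libraries in all, and the other 4 are B cell tumours of the same genotypes, used here only to show where the T tumours differ. In those B tumours sex followed genotype, so their fold changes cannot be told apart from those of sex. The labels do not say which promoter or Cre recombinase, if any, produced the deletion, nor how the tumours were raised. The names of both deltaPOZ T count tables carry the tag ENU and those of both wt tables do not, while all 4 carry the word Notch. What ENU stands for is not given in the sources used here, and it cannot be told apart from genotype in any value below.

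Miz1, encoded by Zbtb17, is a zinc finger transcription factor that activates a small set of genes by itself and represses others when it is joined by Myc. Its POZ domain lets Miz1 molecules form multimers and is needed for stable binding to chromatin, so that deltaPOZ Miz1 is used as a loss of function allele. Miz1 is known to be needed by early T and B lymphocyte precursors. Notch signalling is the main driver of T cell fate and is often active in T cell leukemia.

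The T libraries held 49.5 and 57.4 M (mega) gene counts in wt and 52.8 and 58.3 M in deltaPOZ, and a gene with no count could have stood at up to 0.0515 to 0.0606 CPM (3 counts per library, for counting error alone). Levels below are CPM after normalization by trimmed mean of M values, fold changes are log2 ratios of deltaPOZ to wt given with their standard error (SE), and tests come from edgeR's quasi-likelihood method, adjusted over all 12173 genes by Benjamini-Hochberg, unless another tool is named. Transcripts of alpha beta T cells (Cd3d, Cd3e, Cd3g, Cd28, Lck) were present in every library, and Cd8a and Cd8b1 were present beside Cd4. The name CD4+ is that of the labels, and Cd8a stood above Cd4 in every library. In wt Cd8a stood at 831 and 1310 CPM against 362 and 454 for Cd4. In deltaPOZ the values were 379 and 707 against 105 and 129. T wt 1 stood apart in several ways. Xist, made from an inactive X chromosome, reached 1362 CPM in T wt 1 and 12.6 to 38.6 in the other 3, while the Y-linked Ddx3y stood at 24.6 CPM in T wt 1 and at 151 to 201 in the others. Among the V segments of the receptor beta chain, 1 segment made up 83.0% of the CPM in T wt 2 (Trbv13-3), 96.8% in T deltaPOZ 1 (Trbv16) and 94.9% in T deltaPOZ 2 (Trbv20). In T wt 1 the same 3 segments made up 10.6, 33.0 and 28.8%. T wt 2 also held Trbv20, at 57.4 CPM (9.41%), beside 0.06% in T deltaPOZ 1. Whole chromosomes were shifted in both deltaPOZ libraries: chromosome 14 had a median difference of 0.48 (log2) from the other libraries in T deltaPOZ 1, over genes above 10 CPM, and chromosome 3 one of 0.30 in T deltaPOZ 2. The role of these features in the results was not tested beyond the values given without T wt 1 and without chromosomes 3 and 14.

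**Figure D1:**
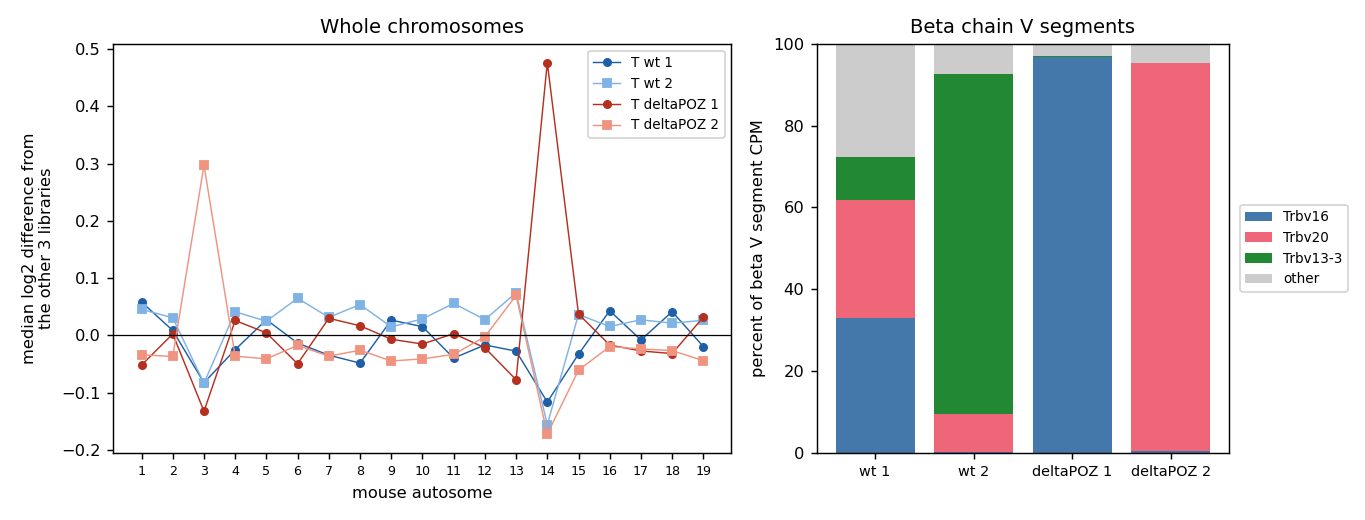
Left: for each mouse autosome, the median log2 difference of its expressed genes in 1 T tumour library from the mean of the other 3; right: the share of beta chain V segment CPM held by 3 segments in each library. Chromosome 14 stands out in T deltaPOZ 1 (0.48) and chromosome 3 in T deltaPOZ 2 (0.30). T wt 1 divides its beta chain among all 3 segments, and T wt 2 holds 9.4% of Trbv20 beside its leading segment.

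The series title asks how the deletion of the POZ domain changes expression in leukemia cells. In the T tumours the 2 libraries of a genotype were about as unlike each other as libraries of different genotype. Of the genes compared, 13.4% differed by over 2-fold between T wt 1 and T wt 2, 10.4% between T deltaPOZ 1 and T deltaPOZ 2, and 10.9 to 13.0% in the 4 pairs of a wt with a deltaPOZ library. Principal components of the 1000 most variable genes held 38.4, 33.4 and 28.2% of their variance. The first and the third mixed the genotypes. On the second, T deltaPOZ 1 (-3.99) stood next to T wt 1 (-5.42), between T wt 2 (-31.5) and T deltaPOZ 2 (40.9).

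By edgeR 0 of 12173 genes (0%) passed an adjusted p of 0.05, and the smallest adjusted p was 0.812. At an unadjusted p under 0.05 there were 217 genes (1.78%) higher in deltaPOZ and 286 (2.35%) lower. Together they were 4.13% of the genes, below the share that this cut passes where no gene differs. The limma-voom fit also called 0 genes. DESeq2, which weighs the spread between libraries in another way, called 36 genes higher (0.296%) and 78 lower (0.641%). Antigen receptor genes were 1 of the higher and 7 of the lower ones. Trbv13-3, the leading beta V segment of T wt 2, was among the lower ones. All 114 also had an unadjusted edgeR p under 0.05, but both tools used the same libraries, so this is no separate support. Both deltaPOZ libraries stood above both wt libraries for 1949 genes (16.0%) and below both for 2127 (17.5%). With groups of this size, a random order of the libraries would give shares close to these. Over all 12173 genes 5935 had a positive and 6238 a negative fold change, to set beside the sign counts of gene lists below. Members of a list were measured in the same tumours and are not replicates of a genotype. No difference below passed the main test, and the words higher and lower give the order of the measured levels only.

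**Figure D2:**
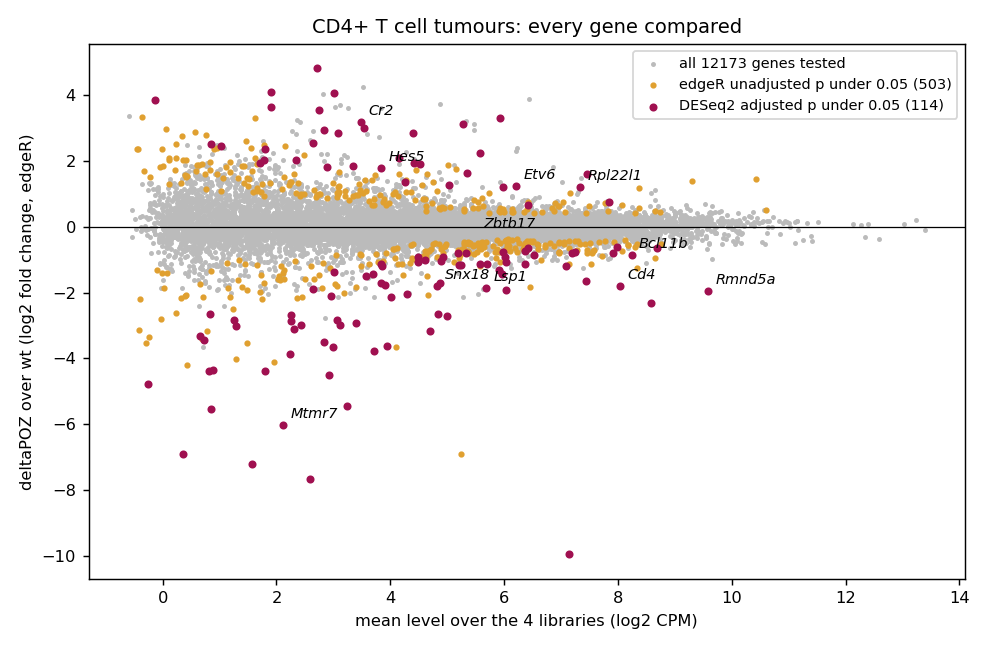
Every gene compared in the T tumours, by its mean level (log2 CPM) and its log2 fold change of deltaPOZ over wt; orange points have an unadjusted edgeR p under 0.05 (503) and purple points a DESeq2 adjusted p under 0.05 (114). Rmnd5a, Cd4 and Lsp1 lie between -1.96 and -1.80, and Etv6 lies at 1.24.

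Zbtb17 itself (ENSMUSG00000006215, GRCm38 chromosome 4, 141444654 to 141467930) stood at 54.2 and 44.4 CPM in wt and at 42.7 and 40.3 in deltaPOZ. The 2 groups did not overlap, but the log2 fold change was small at -0.25 (SE 0.18, edgeR adjusted p = 0.958) and was -0.09 without T wt 1 and -0.38 without T wt 2. Counts over the whole gene include exons outside the POZ domain, so they do not test the allele. The 214 genes within 10 Mb of Zbtb17 had a median log2 fold change of 0.00, and the 380 genes of chromosome 4 from 120 Mb on had one of -0.01.

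The lower genes with the smallest p included Cd4 and Lsp1, and Bcl11b is given beside them from the list of T lineage factors. Cd4, the coreceptor for MHC class II that names these tumours (ENSMUSG00000023274, chromosome 6, 124864692 to 124888221), stood at 362 and 454 CPM in wt and at 105 and 129 in deltaPOZ, a log2 fold change of -1.80 (SE 0.21). Both deltaPOZ tumours thus lay well under both wt tumours. By edgeR Cd4 had an adjusted p of 0.812, and by DESeq2 one of 5.69e-10. Lsp1, an actin-binding protein of leukocytes (ENSMUSG00000018819, chromosome 7, 142460809 to 142494867), stood at 84.3 and 77.5 CPM against 20.3 and 24.2 (-1.86, SE 0.18). Lsp1 missed the threshold by edgeR (adjusted p = 0.812) and passed by DESeq2 (2.61e-12). Bcl11b, a transcription factor that holds T cells to their lineage, stood at 380 and 398 CPM against 212 and 220 (-0.85, SE 0.15). Bcl11b passed by DESeq2 (adjusted p = 0.000135) and not by edgeR (0.857).

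Rmnd5a, a subunit of the GID ubiquitin ligase (ENSMUSG00000002222, chromosome 6, 71388634 to 71440637), was the most abundant of the lower genes. It stood at 1026 and 1412 CPM in wt and at 283 and 346 in deltaPOZ. The log2 fold change was -1.96 (SE 0.24), and the adjusted p was 0.812 by edgeR and 5.69e-10 by DESeq2. Of the 11 GID subunits tested, 10 had a negative fold change, but the other 9 had much smaller differences, with Ranbp10 at -0.51 (SE 0.39, but 0.15 without T wt 2) and Wdr26 at -0.28 (SE 0.20, but -0.10 without T deltaPOZ 2), and the list median was -0.22 (-0.12 without T deltaPOZ 1). Slc30a4, a zinc transporter, stood at 216 and 309 CPM against 86.7 and 80.6 (-1.65, SE 0.23). Rsrc1, a splicing factor, stood at 54.6 and 44.1 CPM against 10.1 and 5.55 (-2.66, SE 0.36). For each of these genes every wt library lay at more than 2 times the level of every deltaPOZ library.

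Another 4 of the lower genes stood below 2 CPM in both deltaPOZ libraries, and Snx18, which completed the 10, is described with the reported Miz1 targets. Mtmr7, a phosphoinositide phosphatase, stood at 6.84 and 10.3 CPM in wt and at 0.0781 and 0.181 in deltaPOZ, which gives a log2 fold change of -6.01 (SE 0.63). Stxbp6, which binds the SNARE proteins of vesicle fusion, stood at 6.48 and 6.88 CPM against 0.293 and 0.344 (-4.38, SE 0.40). Ldhb, the subunit of lactate dehydrogenase typical of heart, stood at 14.8 and 14.2 CPM against 0.956 and 0.326 (-4.50, SE 0.64), and the receptor gene Lrp12 at 11.9 and 14.3 against 0.859 and 1.47 (-3.49, SE 0.42). All 4 had an edgeR adjusted p of 0.812 to 0.857 and passed by DESeq2 (adjusted p from 8.78e-14 to 7.34e-10).

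On the higher side the smallest p belonged to Etv6, an ETS repressor that is often rearranged in leukemia (ENSMUSG00000030199, chromosome 6, 134035700 to 134270158). It stood at 46.6 and 41.9 CPM in wt and at 108 and 101 in deltaPOZ, which made a log2 fold change of 1.24 (SE 0.15). The adjusted p was 0.812 by edgeR and 5.27e-07 by DESeq2. Hes5, a classical target of Notch signalling, stood at 7.49 and 5.46 CPM against 19.8 and 24.4 (1.77, SE 0.29). Kdm8, a Jumonji family enzyme, stood at 20.7 and 17.9 CPM against 52.3 and 40.2 (1.26, SE 0.22). Neither passed by edgeR (adjusted p = 0.857), while both passed by DESeq2 (adjusted p = 0.000138 and 0.00155).

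The other higher genes had low levels in wt. Tln2, a talin that links integrins to actin, stood at 1.16 and 2.14 CPM against 12.6 and 12.6, and Ppp1r26 at 0.345 and 0.758 against 7.88 and 6.06. Cr2, the complement receptor of mature B cells, stood at 3.15 and 1.35 CPM against 21.2 and 19.2 (3.17, SE 0.50). Adgre4, an adhesion receptor of myeloid cells, stood at 3.90 and 4.85 CPM against 18.0 and 13.8. Dglucy, Hap1 and Tbc1d16 completed the 10, with log2 fold changes of 1.94, 2.37 and 1.83. Leaving out any 1 library kept the sign of all 20 of these genes, which choosing genes without overlap all but fixed in advance. The log2 fold change of Cr2 then moved between 2.68 and 3.92 and that of Etv6 between 1.17 and 1.33.

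**Figure D3:**
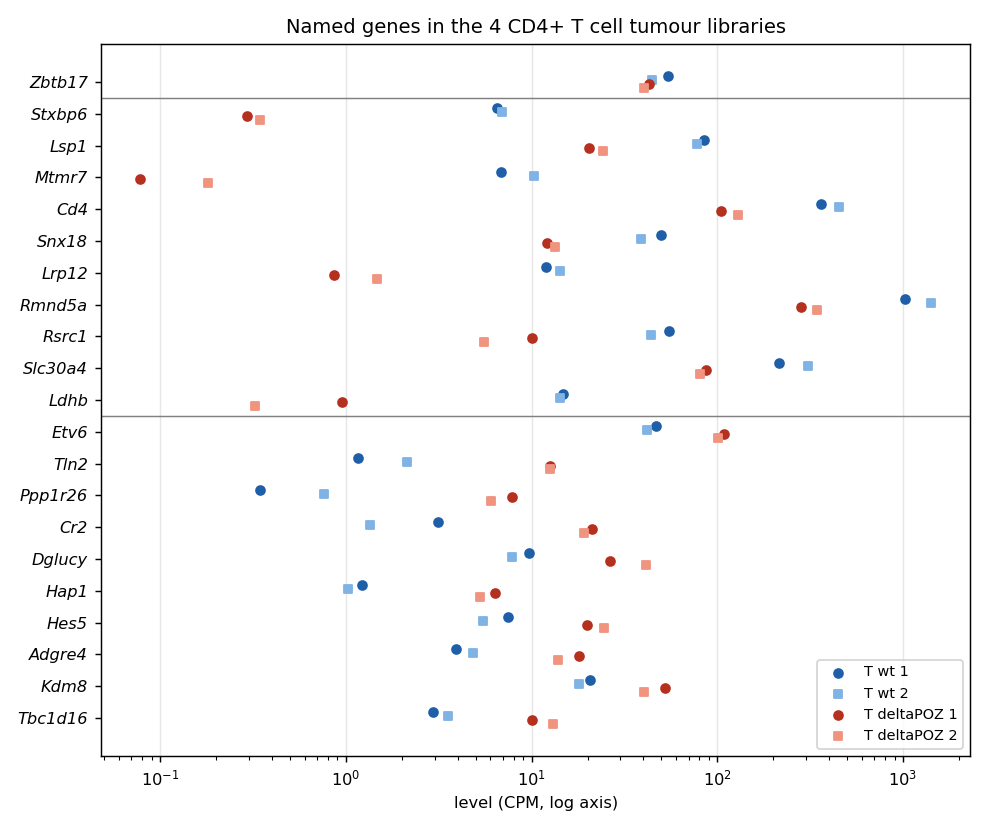
Level in CPM (log axis) of Zbtb17, of the 10 lower and of the 10 higher genes with the smallest p, with 1 point for each T tumour library. Blue wt points and red deltaPOZ points do not overlap for any of the genes, which the rule for choosing the 20 required, and Zbtb17 shows the smallest gap.

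Markers of other cells were counted beside these genes, since the libraries come from bulk tumour, in which fewer cells of a type and less RNA per cell cannot be told apart. All 13 B cell markers tested had a positive fold change (median 1.10). Their summed level was 421 and 119 CPM in wt and 420 and 563 in deltaPOZ, so T wt 2 was low and T wt 1 matched T deltaPOZ 1. Without T wt 2 the median was 0.42 and without T wt 1 it was 2.44. Cr2 is 1 of these markers, and the part of B cells in its higher level was not tested. The 14 alpha beta T cell markers summed to 4533 and 5499 CPM in wt and 3019 and 3975 in deltaPOZ. Of these 14 genes 12 had a negative fold change (median -0.29), and Thy1 (0.47, from 0.22 to 0.71 with 1 library out) and Cd3g (0.18, from 0.029 to 0.37) had a positive one. The part of these cells in the lower level of Cd4 and Bcl11b was not tested.

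Macrophage and monocyte markers summed to 292 and 395 CPM in wt and to 424 and 542 in deltaPOZ, with 13 of 15 positive and a median of 0.41 that was 0.76 without T wt 2 and 0.21 without T deltaPOZ 2. Platelet and megakaryocyte markers summed to 25.2 and 43.8 CPM against 63.2 and 106, with all 8 positive (median 1.18, but 2.33 without T wt 2 and 0.81 without T deltaPOZ 2). Itgb3, the integrin of platelets, stood at 12.2 and 9.44 CPM against 22.3 and 33.0 and passed by DESeq2 alone (adjusted p = 0.0226). Erythroid markers ran from 5788 to 27065 CPM over wt and from 9173 to 15548 over deltaPOZ, with all 13 negative and a median of -0.42 that ran from -1.11 (without T wt 1) to 1.13 (without T wt 2) with 1 library out. Neutrophil markers ran from 61.1 to 1006 CPM over wt and from 132 to 498 over deltaPOZ, and their median of -0.83 ran from -1.92 (without T deltaPOZ 1) to 2.37 (without T wt 1). No marker of these lists was at 0 in all 4 libraries.

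Genes that earlier work reported as direct targets of Miz1 form the list closest to the question. Such targets include genes of vesicle transport and autophagy, which Miz1 activates from their promoters. Of the 15 tested members, 11 had a negative fold change, 9 stood lower in both deltaPOZ libraries than in both wt libraries (17.5% of all genes did), and 5 had an unadjusted p under 0.05, all lower (2.35% of all genes). The list median was -0.29, beside -0.01 over all genes, and it ran from -0.16 without T wt 1 to -0.41 without T wt 2. Of the 4 members with a positive fold change, Tmem126a had the largest: this mitochondrial membrane protein gene stood at 8.06 and 12.2 CPM in wt and at 15.7 and 18.7 in deltaPOZ. DESeq2 called 4 members, all lower (0.641% of all genes), and edgeR called 0. Members of this and the other lists were picked when earlier results of these data were already known. The shares set beside those of all genes therefore cannot test whether a list differs from other genes. It could not be checked whether earlier reports drew any member from these libraries.

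Snx18, a sorting nexin that shapes membranes in vesicle traffic and autophagy (ENSMUSG00000042364, chromosome 13, 113592179 to 113618564), had the largest difference of the list. It stood at 49.6 and 38.7 CPM in wt and at 12.1 and 13.4 in deltaPOZ (-1.79, SE 0.22). Snx18 missed the threshold by edgeR (adjusted p = 0.812) and passed by DESeq2 (1.14e-07). Vamp4, a SNARE protein of the trans-Golgi network, stood at 30.1 and 30.4 CPM against 15.3 and 13.8 (-1.05, SE 0.19, edgeR adjusted p = 0.857). Exoc2, a subunit of the exocyst that tethers vesicles, stood at 195 and 179 CPM against 105 and 109 (-0.81, SE 0.15, edgeR adjusted p = 0.874). Ambra1, a regulator of autophagy through Beclin 1, stood at 83.2 and 77.0 CPM against 49.1 and 44.4 (-0.78, SE 0.15, edgeR adjusted p = 0.890). In each of the 4 the groups did not overlap. These 4 are the members that DESeq2 called, so a gap that is large beside the spread is no separate result.

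The same 4 genes were lower in the B tumours of deltaPOZ mice. Their log2 fold changes there were -3.25 (SE 0.42), -1.76 (SE 0.34), -0.97 (SE 0.25) and -0.91 (SE 0.29) in that order. None of the 4 passed in B by edgeR (adjusted p = 0.0886, 0.199, 0.251 and 0.298). The difference of the T from the B effect did not pass for any of them by edgeR (unadjusted p = 0.0339 for Snx18, with a difference of 1.46 and an adjusted p of 0.787, and 0.169 to 0.736 for the others). Tmx4, a thioredoxin of the endoplasmic reticulum, stood at 100 and 108 CPM in T wt and at 66.7 and 84.2 in T deltaPOZ, a log2 fold change of -0.47 in T (-0.29 without T deltaPOZ 1) beside -2.25 in B, and the test of that difference gave an unadjusted p of 0.00075 and an edgeR adjusted p of 0.326.

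**Figure D4:**
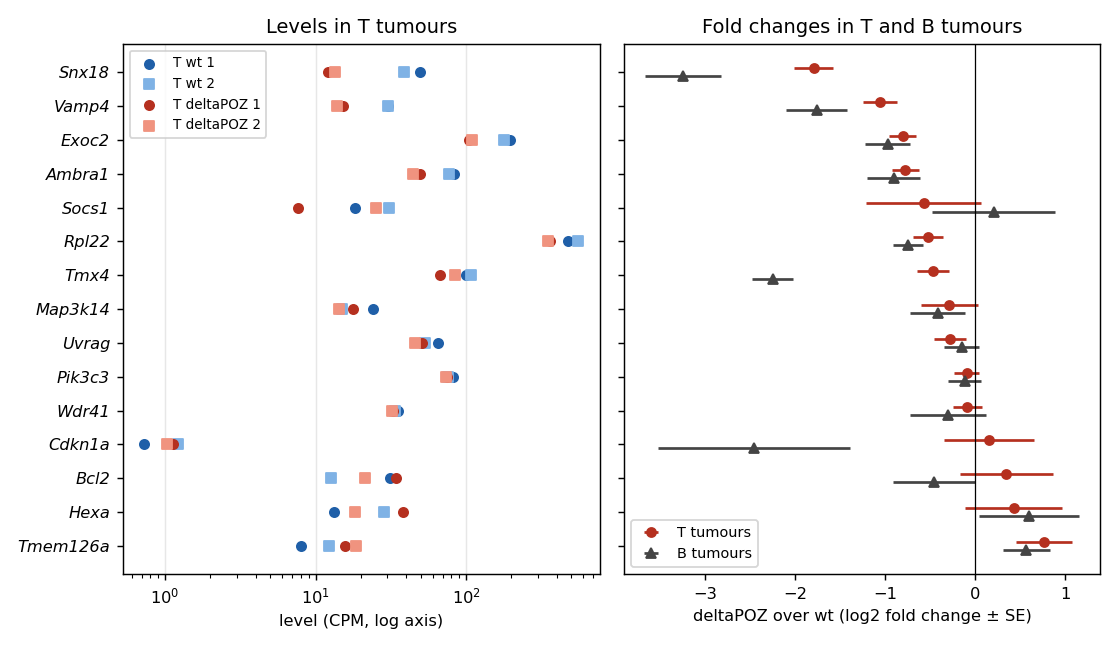
Left: level in CPM (log axis) of the 15 reported Miz1 targets tested, with 1 point for each T tumour library; right: log2 fold change of deltaPOZ over wt with its SE in T (circles) and in B tumours (triangles). Snx18, Vamp4, Exoc2 and Ambra1 lie to the left of 0 in both lineages.

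The promoters of these 4 genes are shown because they are the reported targets whose levels stood apart most clearly in T tumours. Each line holds the 250 bases before the start of the gene, from RefSeq on GRCm38.p6, and capitals mark CACGTG, the E-box that Myc binds together with Max. This motif was added after the sequences had been seen. The windows are chr13:113618565-113618814 on the minus strand for Snx18, chr1:162570265-162570514 on the plus strand for Vamp4, chr13:30974048-30974297 on the minus strand for Exoc2 and chr2:91729888-91730137 on the plus strand for Ambra1.
Snx18: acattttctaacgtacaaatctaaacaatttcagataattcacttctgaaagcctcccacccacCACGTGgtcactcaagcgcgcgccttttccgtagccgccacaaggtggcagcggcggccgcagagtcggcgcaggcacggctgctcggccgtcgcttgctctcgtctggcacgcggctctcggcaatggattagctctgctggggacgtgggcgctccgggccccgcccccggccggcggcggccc
Vamp4: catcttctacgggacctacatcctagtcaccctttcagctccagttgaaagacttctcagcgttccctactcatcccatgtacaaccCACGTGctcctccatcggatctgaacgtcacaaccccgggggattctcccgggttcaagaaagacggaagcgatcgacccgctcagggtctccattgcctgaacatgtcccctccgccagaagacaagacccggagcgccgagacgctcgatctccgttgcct
Exoc2: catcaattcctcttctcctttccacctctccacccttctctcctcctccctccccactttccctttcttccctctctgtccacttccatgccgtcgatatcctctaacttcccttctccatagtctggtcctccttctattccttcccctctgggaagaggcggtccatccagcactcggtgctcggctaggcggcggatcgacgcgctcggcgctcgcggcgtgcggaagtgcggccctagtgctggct
Ambra1: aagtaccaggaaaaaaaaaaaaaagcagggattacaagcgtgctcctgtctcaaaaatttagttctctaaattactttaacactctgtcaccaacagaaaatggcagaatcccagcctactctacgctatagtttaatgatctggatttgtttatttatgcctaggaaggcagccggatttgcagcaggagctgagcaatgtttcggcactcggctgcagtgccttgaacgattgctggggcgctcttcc
The E-box lay 186 bases before the start of Snx18 and 163 before that of Vamp4, counted from its first base, and no copy lay in the windows of Exoc2 and Ambra1. It was present in 2 of the 14 reported targets with a promoter in the table (14.3%). The share was 9.97% of the 9033 genes compared here that had a promoter and 6.86% of all 27025 genes with a promoter. ATCGGTAA, a motif reported for Miz1, was searched on both strands (reverse complement TTACCGAT) and does not overlap the E-box. The Miz1 motif was present in 0 of the 14 targets, in 14 of the 9033 genes compared that had a promoter (0.155%) and in 30 of all genes with a promoter (0.111%). A missing match says only that these letters are not in the window.

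Rpl22, a ribosomal protein and reported target, stood at 473 and 554 CPM in wt and at 364 and 348 in deltaPOZ (-0.53, SE 0.17), which did not pass by edgeR (adjusted p = 0.958). Its paralog Rpl22l1, which can take its place in the ribosome, stood at 89.4 and 106 CPM against 194 and 259 (1.21, SE 0.22, edgeR adjusted p = 0.857, DESeq2 0.000618). Rpl22l1 lies on chromosome 3, which was raised in T deltaPOZ 2, and without that library its fold change was 0.99. The other cytosolic ribosomal proteins differed little: of 74 tested, 70 had a positive fold change with a median of 0.12, and the 4 negative ones were Rpl22 and, by less than 0.05, Rpl30, Rpl35a and Rps10, which turned positive without T wt 2 or without T deltaPOZ 1. The median was 0.06 without T wt 1, 0.07 without T deltaPOZ 2 and 0.19 without T wt 2.

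Vesicle, autophagy and lysosome genes were counted as lists of their own, which hold some of the reported targets. Of 38 vesicle tethering and fusion genes tested, 17 had a positive and 21 a negative fold change (median -0.03). An unadjusted edgeR p under 0.05 was found for 5, all lower, beside 2.35% of all genes. These were Snx18, Vamp4 and Exoc2, which are reported targets, with Stx6 (-0.76) and Vamp1 (-0.94, but -0.51 without T wt 1), both SNARE proteins. The median was 0.03 without T wt 2 and -0.08 without T wt 1. Of 34 core autophagy genes 27 had a negative fold change (median -0.17), and Ambra1 was the only one at an unadjusted p under 0.05. The autophagy median was 0.00 without T wt 2 and -0.08 without T deltaPOZ 1. Of 28 lysosome genes 18 had a positive fold change (median 0.09), but without T deltaPOZ 2 the positive ones were 11 and the median was -0.05, and without T deltaPOZ 1 the median was 0.19. Lipa, the lysosomal acid lipase, went the other way at 196 and 182 CPM against 64.1 and 101 (-1.19, SE 0.27) and passed by DESeq2 alone (adjusted p = 0.0157).

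Of 24 genes of the receptor complex and its proximal signalling, 18 had a negative fold change (median -0.19). An unadjusted edgeR p under 0.05 was found for 2, Ubash3a among them, both lower, beside 2.35% of all genes. The median was -0.10 without T wt 1 and -0.30 without T wt 2. Of 19 T lineage transcription factors, 13 had a negative fold change (median -0.29). Beside Bcl11b these included Ikzf3, an Ikaros family factor, at 265 and 211 CPM against 155 and 129 (-0.74, SE 0.20). The median of this list was -0.12 without T wt 1, -0.11 without T deltaPOZ 2 and -0.54 without T wt 2.

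Cd8a stood at 831 and 1310 CPM in wt and at 379 and 707 in deltaPOZ (-0.98, SE 0.40), and Cd8b1 at 355 and 630 against 134 and 325 (-1.10, SE 0.53). T deltaPOZ 1 was lowest for both, and without it the fold changes were -0.58 for each, while without T deltaPOZ 2 they were -1.50 and -1.88. The recombination genes Rag1 and Dntt set T deltaPOZ 1 apart from all other libraries rather than deltaPOZ from wt. Rag1 stood at 829 and 1039 CPM in wt, 8.84 in T deltaPOZ 1 and 1166 in T deltaPOZ 2, and Dntt at 122, 439, 5.46 and 303 in that order. Of 20 thymocyte stage genes 16 had a negative fold change, and the median of -0.55 became 0.06 without T deltaPOZ 1, -0.30 without T wt 2 and -0.97 without T deltaPOZ 2.

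Notch genes lay on both sides of 0. Of 25 tested, 12 had a positive and 13 a negative fold change (median -0.02, from -0.10 to 0.10 with 1 library out). Hes5 and Nrarp were the 2 with an unadjusted edgeR p under 0.05, both higher, beside 1.78% of all genes. Nrarp, a feedback inhibitor of Notch, stood at 380 and 321 CPM in wt and at 555 and 1266 in deltaPOZ (1.38, SE 0.43, edgeR adjusted p = 0.958), and without T deltaPOZ 2 its fold change was 0.66. The receptor Notch3 stood at 240 and 371 CPM against 102 and 213 (-0.95, SE 0.44), with a fold change of -0.50 without T deltaPOZ 1, -0.61 without T wt 2 and -1.58 without T deltaPOZ 2. Other targets of the pathway, Hes1 (0.09), Dtx1 (0.12) and Heyl (0.03), lay near 0 and turned negative without T deltaPOZ 2.

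Genes of DNA replication and of mitosis lay on opposite sides of 0 by small amounts. Of 36 DNA replication genes 35 had a positive fold change (median 0.28), and 27 stood higher in both deltaPOZ libraries, as did 16.0% of all genes. Mcm5, a subunit of the replicative helicase, stood at 390 and 440 CPM in wt and at 539 and 522 in deltaPOZ (0.35), and Prim2, a primase subunit, at 157 and 124 against 201 and 234 (0.63, SE 0.20). Of 30 mitosis genes 29 had a negative fold change (median -0.19), and 15 stood lower in both deltaPOZ libraries, beside 17.5% of all genes. Cenpf, a kinetochore protein, stood at 376 and 384 CPM against 253 and 273 (-0.53, SE 0.15), and Cenpa, the centromeric histone, at 135 and 126 against 88.3 and 107 (-0.42, SE 0.17, but -0.27 without T deltaPOZ 1). With 1 library left out the replication median ran from 0.23 to 0.35 and the mitosis median from -0.21 to -0.15. No gene of either list passed by edgeR or DESeq2.

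Lists of energy metabolism and growth had positive medians of similar small size. Of 36 oxidative phosphorylation genes 33 had a positive fold change (median 0.19), among them Ndufs8, a complex I subunit, at 50.1 and 58.6 CPM against 72.3 and 75.0 (0.44). Without T wt 1 that median was 0.11 and without T wt 2 it was 0.29. Of 29 ribosome biogenesis genes induced by Myc 27 had a positive fold change (median 0.23), led by Npm1 (0.51, SE 0.18), but the median was 0.01 without T deltaPOZ 1, 0.06 without T wt 1, 0.35 without T wt 2 and 0.37 without T deltaPOZ 2. Of 24 glycolysis and hypoxia genes 16 had a positive fold change (median 0.19), with Tpi1 at 202 and 219 CPM against 367 and 295 (0.66, SE 0.18). Cholesterol and fatty acid genes went the other way: 20 of 26 had a negative fold change (median -0.15). An unadjusted edgeR p under 0.05 was found for 4, among them Srebf1, Srebf2 and Sc5d, all lower, beside 2.35% of all genes. Srebf1, a master regulator of lipid synthesis, stood at 136 and 120 CPM against 83.4 and 83.8 (-0.61, SE 0.15). The median of this list was -0.04 without T wt 2, -0.29 without T wt 1, -0.40 without T deltaPOZ 1 and -0.26 without chromosomes 3 and 14.

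Of 37 interferon response genes 32 had a negative fold change (median -0.38) and 15 stood lower in both deltaPOZ libraries, where 17.5% of all genes did. Oasl2 stood at 17.8 and 22.1 CPM in wt and at 8.78 and 8.81 in deltaPOZ (-1.18, SE 0.24, DESeq2 adjusted p = 0.0138), and the GTPase Igtp at 112 and 96.3 against 53.4 and 73.2 (-0.72, SE 0.22). The direction rested in part on T wt 1: without it 15 of the 37 had a positive fold change and the median was -0.14. In the B tumours the median of this list was 0.63.

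**Figure D5:**
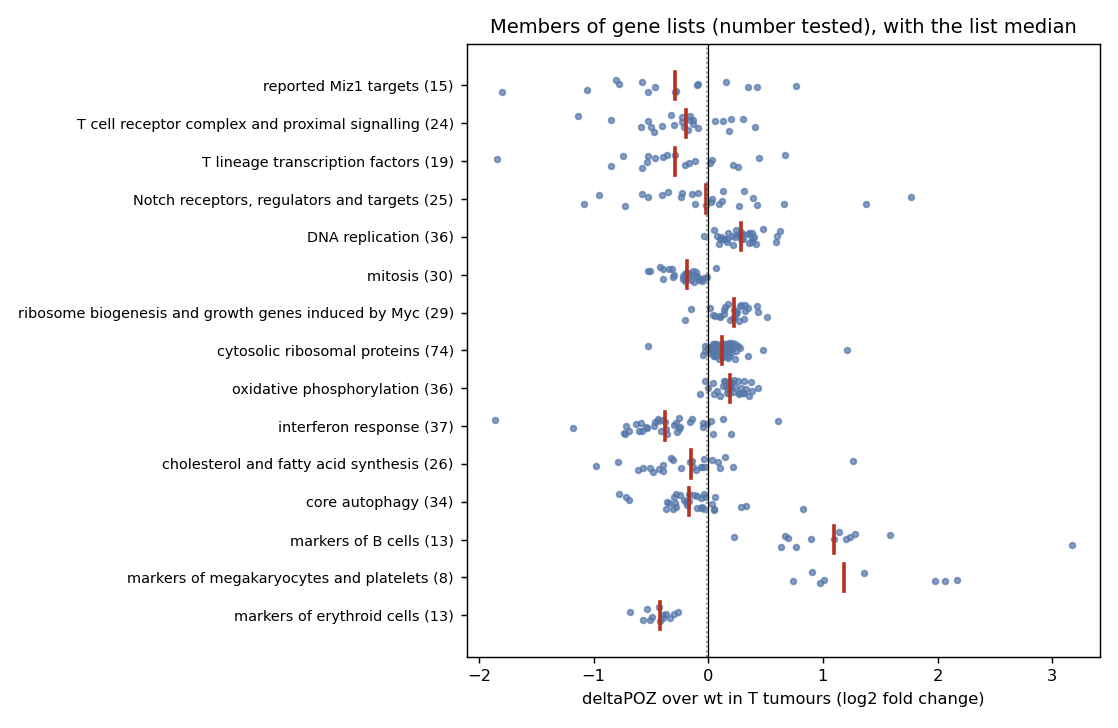
Log2 fold change of deltaPOZ over wt in T tumours for each tested member of 15 gene lists (points), with the list median (red bar) and the median of all genes (dotted line). Members of the DNA replication and mitosis lists lie on opposite sides of 0 with medians of 0.28 and -0.19, while B cell and platelet markers have medians of 1.10 and 1.18, which fall to 0.42 and 0.81 with 1 library out.

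The remaining gene lists had medians between -0.57 and 0.22 with few members past an unadjusted p of 0.05. Of 23 genes for Miz1, Myc and their partners 18 had a negative fold change (median -0.21), but the median was -0.10 without T wt 1, and without T deltaPOZ 2 it was -0.01 with 12 negative. Bcl6, a POZ protein that binds Miz1, stood at 21.0 and 18.4 CPM against 8.82 and 9.14 (-1.14, SE 0.23) and passed by DESeq2 alone (adjusted p = 0.00878). Of 20 effector and regulatory T cell genes 15 had a negative fold change (median -0.57), with the median at -0.19 without T wt 1, -1.23 without T deltaPOZ 2 and -0.11 with the filter of 5 CPM. Of 28 unfolded protein response genes 13 had a positive fold change (median -0.04, from -0.20 to 0.19 with 1 library out), and Xbp1, its transcription factor, stood at 86.5 and 103 CPM against 53.2 and 57.8 (-0.77, SE 0.16). Medians were -0.15 for 24 cytokine signalling genes, -0.12 for 21 homing and adhesion genes, -0.20 for 21 immediate early genes and -0.07 for 23 NF-kB genes. With 1 library out none of these 4 kept its sign throughout: they ran from -0.39 (without T deltaPOZ 2) to 0.08 (without T wt 1), from -0.21 (without T deltaPOZ 2) to 0.06 (without T wt 2), from -0.57 (without T deltaPOZ 1) to 0.12 (without T deltaPOZ 2) and from -0.24 (without T wt 2) to 0.11 (without T wt 1). They were -0.04 for 26 p53 targets, 0.03 for 22 regulators of the G1 phase, -0.02 for 18 BCL2 family genes and 0.22 for 10 leukemia-linked progenitor factors. The last of these was 0.77 without T wt 1, -0.04 without T deltaPOZ 2 and -0.16 with the filter of 5 CPM, and with 1 library out the others ran from -0.12 to -0.01, from -0.07 to 0.14 and from -0.13 to 0.11 in that order. Markers of dendritic cells, NK cells and stroma had medians of 0.69, -0.56 and 0.99 over 8, 6 and 10 genes, in that order. With 1 library out they ran from 0.27 (without T wt 2) to 1.02 (without T wt 1), from -0.75 (without T deltaPOZ 2) to -0.29 (without T wt 1 or T deltaPOZ 1) and from -0.35 (without T deltaPOZ 2) to 3.07 (without T wt 2).

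The T effect was set against the B effect in a fit of all 8 libraries. Because sex followed genotype in the B tumours, sex cannot be told apart from genotype in any B fold change or lineage difference. For the difference between the lineages edgeR called 0 of 12173 genes (0%), with a smallest adjusted p of 0.239, and 743 genes had an unadjusted p under 0.05. The counts were 0 by limma-voom and 128 by DESeq2. With any 1 of the 8 libraries out edgeR still called 0, with a smallest adjusted p of 0.0501 without B deltaPOZ 2 and 0.230 to 0.754 without each of the others. Of the 503 genes at an unadjusted p under 0.05 in T, 56.1% had the same sign in B, beside 57.7% of all genes compared. The same sign together with an unadjusted edgeR p under 0.05 in B was found for 69 of them (13.7%), beside 8.54% of all genes. Of the genes described above, Lsp1 (0.31 in B), Rmnd5a (-0.05) and Etv6 (-0.06) lay near 0 in B. Their T minus B differences were -2.16 (SE 0.30), -1.89 (SE 0.35) and 1.32 (SE 0.31), with edgeR adjusted p of 0.253, 0.456 and 0.631. Hes5 was lower in B (-2.09, SE 0.46) and higher in T, a difference of 3.87 (SE 0.63, edgeR adjusted p = 0.320). Slc30a4 was lower in B too (-2.80, SE 0.61), and Tln2 (2.08, SE 0.52) and Kdm8 (1.03, SE 0.27) were higher in both lineages. In B none of Hes5, Slc30a4, Tln2 and Kdm8 passed by edgeR (adjusted p = 0.220, 0.221, 0.249 and 0.254 in that order).

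Single tumours carried large differences of their own. Rnd2, a small GTPase, stood at 148 CPM in T wt 2 and at 0.488 to 1.46 in the other 3 libraries. Gfra1, a receptor subunit for GDNF, stood at 145 CPM in T deltaPOZ 2 and at 0.722 to 8.34 in the others, and the neuropeptide gene Npy at 43.8 CPM there and at 0.0585 to 1.86 elsewhere. Ly6d, which marks early lymphoid precursors, stood at 316 CPM in T deltaPOZ 2 and at 4.30 to 17.5 in the others. T deltaPOZ 1 lacked most of the Bst1 (5.31 CPM), Plod2 (0.702) and Trbc1 (1.85) found in the other libraries, where they stood at 75.5 to 196, 31.2 to 63.8 and 192 to 329. Neutrophil transcripts set T wt 1 apart from T wt 2: Ngp stood at 152 against 5.82 CPM and Ltf at 140 against 7.34. Of the genes with a mean of at least 20 CPM, 407 of 7231 (5.63%) differed by over 2-fold between the wt libraries and 278 of 7250 (3.83%) between the deltaPOZ libraries.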

How the data were processed

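RNA of 8 tumours was made into TruSeq Stranded mRNA libraries, per the labels' protocols. The values used are raw read counts per gene as the authors deposited them; per the submitters' processing notes, TopHat2 2.0.10, SAMtools, HTSeq and DESeq were used with mm10 (GRCm38). Which annotation release and strand setting the counting used is not stated in these sources. Counts assigned to no gene made up 32.6 to 39.3% of the T libraries and were left out, with ambiguous ones. GENCODE M21 held 40340 of the 41214 gene identifiers.

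The 4 T libraries were fitted alone in edgeR 4.0.16 (R 4.3.3) with 1 mean per genotype, trimmed mean of M values and the quasi-likelihood test, two-sided, threshold 0.05 after Benjamini-Hochberg adjustment over 12173 genes; there were 2 residual degrees of freedom and the biological coefficient of variation was 0.358. The lineage difference and the B fold changes came from a fit of all 8 libraries. DESeq2 1.42.0 and limma-voom (limma 3.58.1) were alternatives, with median-of-ratios size factors, filters of 10 counts in total or 5 CPM in 2 libraries, removal of receptor segments, inclusion of sex chromosomes and mitochondria, removal of chromosome 14, a threshold of 0.1, all 8 libraries in the fit and leaving out each library. Removal of chromosomes 3 and 14 together, and the E-box search, were added after the data were seen.

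Members and lists were chosen with earlier results of these data known. Named genes are Zbtb17, the 10 genes per direction with the smallest p among those with a group mean of at least 5 CPM and groups that do not overlap (without receptor segments, pseudogenes and unnamed models), up to 4 members per list by smallest p, and genes with the largest differences within a genotype; other list members named (Mcm5, Hes1, Dtx1, Heyl, Thy1, Cd3g, Wdr26, Ranbp10, Cd8b1, Rpl30, Rpl35a, Rps10, Tmem126a, Tmx4, Vamp1, Trbc1) were chosen after their values were seen. There were 28 gene lists and 9 marker lists, of which Vps28 and Ahsp did not match. The code was tested on simulated counts. Replicate numbers come from accession order and are names only. A few genes that the naming rule selects are not reported here.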

Additional observations from a re-analysis of the deposited data

Results flagged for a closer look

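Xist at 1362 CPM in T wt 1 lay outside the autosomal comparison and stood far above the limit for a count of 0 (0.0606 CPM in that library) and above the other 3 T libraries (12.6 to 38.6 CPM). Ddx3y, on the Y chromosome, stood at 24.6 CPM in the same library and at 151 to 201 in the others. Xist and Ddx3y were thus counted together in all 4 T libraries, though Xist was low in all but T wt 1. The source of these counts was not tested. Groups of 2 libraries were too small for a search for single outlying values.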

How the results depend on the processing

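By edgeR 0 genes were called in the T comparison under every filter, scaling and set of libraries tried, with smallest adjusted p from 0.107 (without T wt 1) to 0.911. DESeq2 called 114, and 128 for the T minus B difference, for which edgeR called 0 with any 1 library out (smallest adjusted p 0.0501, without B deltaPOZ 2). Fitting all 8 libraries left 331 genes at an unadjusted p under 0.05 instead of 503, and leaving out 1 library gave 464 to 752. The log2 fold change of Zbtb17 ran from -0.38 to -0.09. All 20 genes of the main naming rule kept their sign in every setting, which that rule made nearly certain by requiring groups that do not overlap. Their smallest adjusted p in any edgeR fit was 0.443. Among 186 genes with 2566 alternative values (the named genes, up to 4 members of each list and the genes given with values), 46 values in 31 genes changed sign, for genes that passed no test by edgeR. With 1 library out, the log2 fold change crossed 0 for Nr4a3 (-2.22 to 0.70), Epor (-1.06 to 0.23), Tspo2 (-1.38 to 0.75), Slc4a1 (-1.11 to 0.65), Klf1 (-0.96 to 0.58), Elane (-2.96 to 0.89), Retnlg (-0.082 to 2.42) and Prtn3 (-2.53 to 1.68). It also did so for Gzma (-0.035 to 1.95), Sparc (-0.36 to 3.81), Kdr (-0.00036 to 2.16), Pdgfra (-0.34 to 4.67), Hes1 (-0.099 to 0.28), Dntt (-5.68 to 0.34), Gfra1 (-3.44 to 4.22) and Cd28 (-0.42 to 0.15). The same held for Bst1 (-4.15 to 1.07), Dtx1 (-0.073 to 0.31), Npy (-4.25 to 5.61), Plod2 (-5.77 to 0.75), Ngp (-2.38 to 2.64), Ltf (-2.29 to 2.53), Heyl (-0.56 to 0.46) and Ly6d (-0.49 to 5.23). The others were Ranbp10 (-0.94 to 0.15), Rps10 (-0.14 to 0.099), Rpl30 (-0.17 to 0.091), Rpl35a (-0.093 to 0.054), Rag1 (-6.72 to 0.34), Gm10800 (-3.25 to 6.76) and Trbc1 (-7.13 to 0.16). Under limma-voom Bst1 (-1.47), Ngp (0.0016), Ltf (0.022), Heyl (-0.052) and Gm10800 (1.70) changed sign, and with the filter of 10 counts in total Heyl did (-0.00031). The cause was not tested. No paired analysis was possible because the labels give the libraries mouse numbers that the groups do not share. With 2 tumours per genotype, the tag ENU on both deltaPOZ tables and the mixed features of T wt 1, the values describe these 4 tumours.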

Other observations

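DESeq2 alone also called the following genes, which were chosen after their values were seen. Ksr1, a scaffold protein of kinase signalling, stood at 39.9 and 36.2 CPM in wt and at 104 and 72.9 in deltaPOZ (log2 fold change 1.22, SE 0.23). Orai2, a calcium channel subunit of the plasma membrane, stood at 87.6 and 82.6 CPM against 45.5 and 44.5 (-0.92, SE 0.14). Gne, the enzyme that starts sialic acid synthesis, stood at 49.6 and 54.3 CPM against 24.3 and 22.4 (-1.15, SE 0.17). Hells, a chromatin remodeller needed for DNA methylation, stood at 156 and 188 CPM against 298 and 279 (0.75, SE 0.18). None of these passed by edgeR (the smallest adjusted p of any gene was 0.812), and DESeq2 adjusted p were 0.0038, 0.000497, 7.09e-05 and 0.0338 in that order.

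Apol11b, an apolipoprotein L gene, stood at 240 and 1043 CPM in wt and at 130 and 127 in deltaPOZ, and its neighbour Apol11a at 14.2 and 79.2 against 5.91 and 4.58. Both belong to the apolipoprotein L family, and how far shared sequence affects their counts was not tested. Gm10800, a gene model with repeated sequence, stood at 2453 CPM in T wt 1 and 1986 in T deltaPOZ 2 but at 9.88 in T wt 2 and 129 in T deltaPOZ 1. The first 2 libraries also had the largest no-feature shares (38.5 and 39.3%, against 34.2 and 32.6%).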
